A study of Oryza sativa Indica Group with 8 samples.

Results

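The loci described here are 9 of 55986 counted in rice leaves whose messenger RNA stood higher after a single salt shock, early or late, than in plants shocked never or at both stages. They were chosen by CPM (the reads of a locus per 1000000 reads counted in its library): the lowest of the 4 single-shock libraries had to be at least 1.3 times the highest of the 4 control and double-shock libraries, with a mean of at least 5 CPM in the single-shock libraries. The rule thus used every library. Differences of the single-shock groups from control or from double-shock plants are therefore given below as a description, with no test. Only the reproductive against the vegetative shock, and the double shock against control, were tested, since the rule sets no direction for them. The rule does use the lowest or highest library of a side, so the size of these differences is not free of the choice.

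The plants were the indica genotype BRS Ligeirinho, which the labels call sensitive to salt, germinated for 7 days and then kept in washed sand in a greenhouse. Each of 4 groups had 2 libraries from leaf tissue: control plants given water and nutrient solution only, plants with a vegetative shock (salt at stage V4), plants with a reproductive shock (salt at stage R0-R1), and double-shock plants, which met salt at V4 and again at R0-R1. The labels state no salt dose, no sampling time and no number of plants behind a library, so sampling time and shock cannot be told apart. They also do not say that a group's libraries came from separate plants, so each p-value reflects the spread between libraries, which may be technical.

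Plants sense excess sodium as both an osmotic and an ionic stress, and leaves answer with changes in hormone signalling, ion transport, protective proteins and photosynthesis. A first stress can leave a trace that alters the answer to a later one, called stress memory. Memory genes are usually described by comparing a first with a repeated exposure: some respond more strongly the second time, others respond less or not at all, and some keep a changed level after the stress has ended. A locus with a level near control after the repeated exposure and a raised level after either single one falls among the patterns that such a design can separate. In leaf tissue as a whole, more RNA per cell and more cells of a type that holds the RNA cannot be told apart.

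Of the 55986 loci in the deposited tables, 55801 have identifiers of the LOC_Os form, the 9 among them, and the tables give no gene names. Of the 9 identifiers, 0 were paired with a name by the reference gene table, as were 0 of all 55986. No gene name, function, sequence or coordinate is given for them, and the label leaf could not be checked against named markers. Each identifier carries the chromosome number, followed by a number that rises along that chromosome.

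The libraries held 10464740 to 11727657 counted reads, so 3 reads, the most that an observed 0 allows, were worth 0.256 to 0.287 CPM, which covers counting error only. Among the 9 loci the fewest reads in any library were 36 and the most 5558. Reads aligned to more than 1 place made up 13.5% to 13.8% of the reads listed in control replicate 1, reproductive replicate 2 and double-shock replicate 1, against 9.32% to 9.99% in the other 5 libraries. These 3 libraries lie on both sides of the rule, 1 on the higher side and 2 on the lower. Scaling factors by the TMM method ran from 0.923 in reproductive replicate 2 to 1.08 in control replicate 1, so plain CPM and TMM-scaled CPM of a locus differ by up to that much.

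Of the 9 loci, 4 had a mean over the single-shock libraries at least 2 times the mean over the other 4 libraries. LOC_Os02g45930 (chromosome 2) had the widest gap of the 9. It stood at 62.1 and 50.0 CPM in control, 157.4 and 137.1 CPM after the vegetative shock, 136.5 and 142.5 CPM after the reproductive shock, and 48.8 and 37.3 CPM after the double shock. The group means were 56.1 ± 8.58, 147.2 ± 14.3, 139.5 ± 4.30 and 43.0 ± 8.18 CPM (SD, n = 2) in the same order. Its lowest single-shock library was 2.20 times its highest other library. Either shock alone came with about the same level, 2.63 times control for the early and 2.49 times for the late one, and plants that had met both stood at 0.768 times control.

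LOC_Os04g49370 (chromosome 4) had the next widest gap, 1.89 times. Control libraries stood at 11.6 and 11.8 CPM, vegetative at 33.1 and 26.7, reproductive at 22.4 and 23.9, and double-shock at 9.84 and 5.12. The vegetative libraries were its highest and the double-shock libraries its lowest, and no 2 groups overlapped in plain CPM. The means were 2.55 times control after the early shock, 1.98 times after the late shock and 0.639 times after both. Double-shock replicate 2 rested on 60 reads.

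LOC_Os06g50230 (chromosome 6) had the highest mean CPM of the 9 over the 4 single-shock libraries, a value that also depends on the length of a locus. It gave 241.6 and 171.1 CPM in control, 526.9 and 440.0 after the vegetative shock, 349.9 and 403.4 after the reproductive shock, and 141.6 and 93.9 after the double shock. Here too the 4 groups did not overlap in plain CPM, and they fell in the same order as for LOC_Os04g49370. With TMM factors the vegetative and reproductive libraries overlapped at both loci. The control mean was 206.3 ± 49.8 CPM (SD, n = 2). Its group means were 2.34 and 1.83 times control after the early and the late shock, and 0.571 times after both, the lowest such value among the 9.

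LOC_Os01g23990 (chromosome 1) had few reads throughout and its highest values after the reproductive shock. Its values were 3.24 and 5.07 CPM in control, 7.49 and 10.5 after the vegetative shock, 11.7 and 12.8 after the reproductive shock, and 4.01 and 4.78 after the double shock. It was the only one of the 9 with a mean CPM higher in double-shock plants than in control, by 1.06 times. Those 4 libraries overlapped, and control replicate 1 held 36 reads, the fewest of any library at any of the 9.

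**Figure D1:**
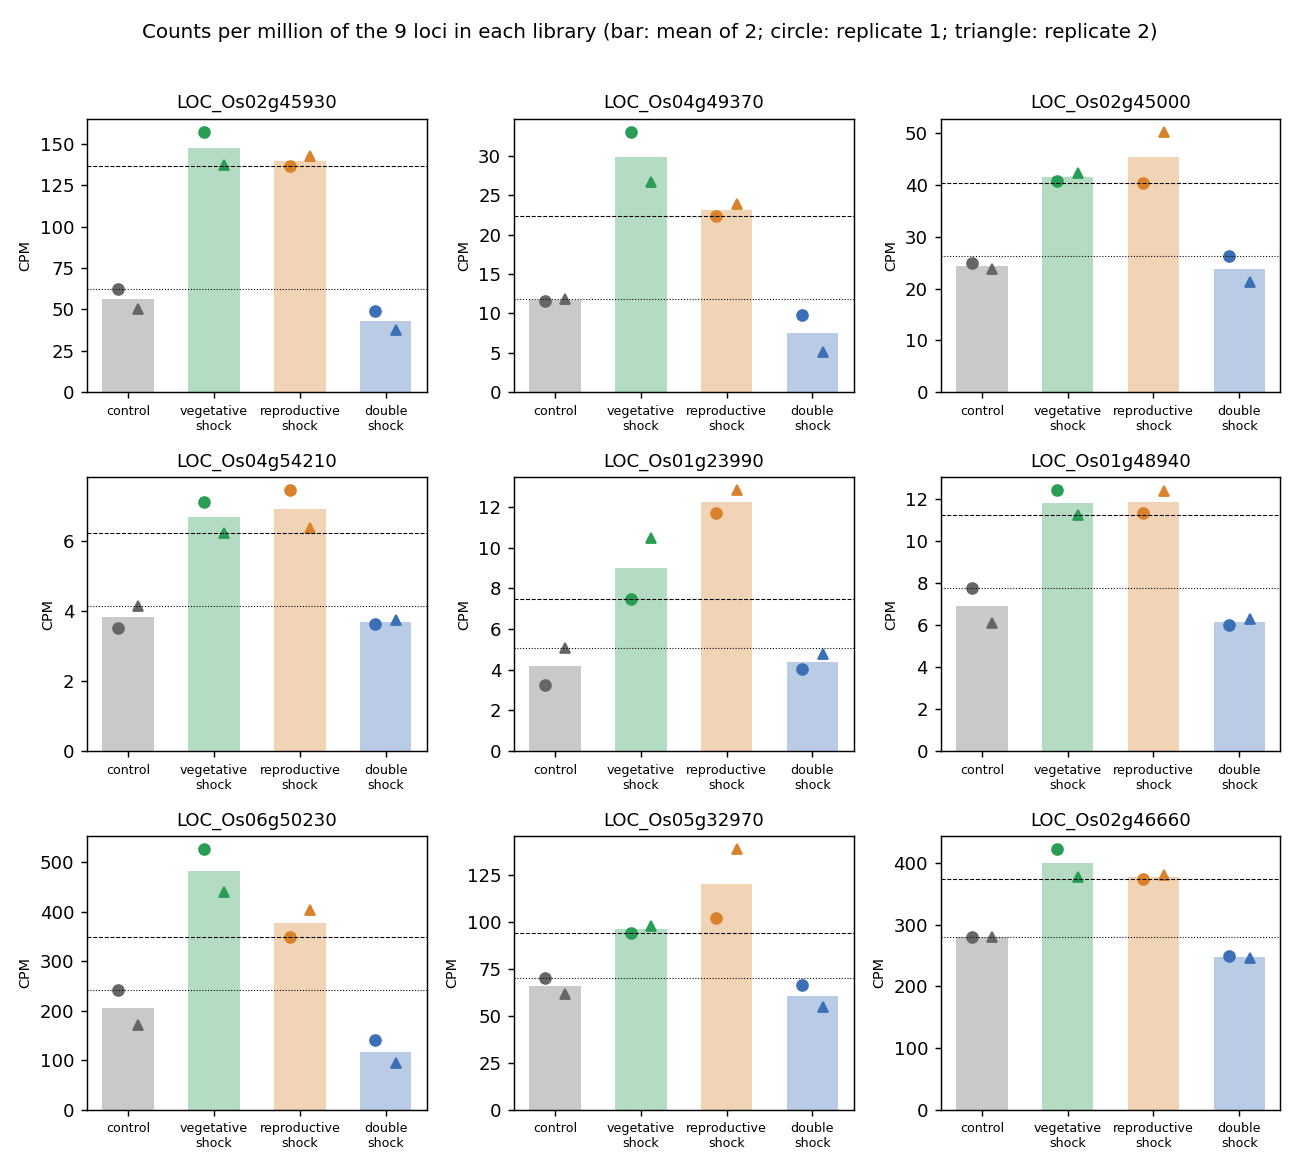
Each panel shows 1 of the 9 loci, with CPM on the vertical axis (linear, from 0) and the 4 groups on the horizontal axis. Bars are means of 2 libraries, circles replicate 1 and triangles replicate 2. The dashed line marks the lowest single-shock library and the dotted line the highest control or double-shock library; the gap between the lines is what the rule selected.

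The other 5 loci had a mean over the single-shock libraries under 2 times the mean over the other 4 libraries. LOC_Os02g45000 (chromosome 2) stood at 24.9 and 23.8 CPM in control, 40.7 and 42.2 after the vegetative shock, 40.5 and 50.3 after the reproductive shock, and 26.4 and 21.2 after the double shock. Its double-shock libraries lay on either side of both control libraries, and reproductive replicate 2 was above the other single-shock libraries.

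LOC_Os05g32970 (chromosome 5) showed the same feature of 1 high library, at 139.0 CPM in reproductive replicate 2 against 102.2 in replicate 1. The vegetative libraries gave 94.3 and 98.2 CPM, control 70.1 and 61.7, and the double shock 66.3 and 54.7. The reproductive mean was 120.6 ± 26.0 CPM (SD, n = 2), the widest spread relative to its mean in any single-shock group of the 9 except the vegetative group of LOC_Os01g23990 (8.98 ± 2.11 CPM).

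LOC_Os02g46660 (chromosome 2) stood at 280.8 and 280.2 CPM in control and had the smallest ratios of single-shock means to control among the 9. Vegetative libraries gave 422.3 and 376.8 CPM, reproductive 373.4 and 380.2, and double-shock 249.0 and 246.3. Its means were 1.42 and 1.34 times control after the single shocks and 0.883 times after both. Replicates lay close together in 3 of the 4 groups, and double-shock libraries did not overlap control.

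LOC_Os01g48940 (chromosome 1) and LOC_Os04g54210 (chromosome 4) both had few reads. At LOC_Os01g48940 the control libraries had 7.75 and 6.09 CPM, the vegetative 12.4 and 11.3, the reproductive 11.4 and 12.4, and the double-shock 6.02 and 6.31. At LOC_Os04g54210 they had 3.51 and 4.15, 7.11 and 6.24, 7.45 and 6.36, and 3.63 and 3.75 CPM in the same order. The early and the late shock came with nearly equal levels at each of them, 1.71 times control after either shock at LOC_Os01g48940, and 1.74 and 1.80 times at LOC_Os04g54210. Counts at LOC_Os04g54210 were 38 to 86 reads, so counting error alone is wide there.

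Across the 9 loci the vegetative mean was 1.42 to 2.63 times control (median 1.74) and the reproductive mean 1.34 to 2.95 times control (median 1.83). Double-shock means were 0.244 to 0.629 times the vegetative mean and 0.309 to 0.657 times the reproductive mean. These 4 ranges share groups with each other and with the rule, and their direction was fixed by the choice. Multiplying the ratios of the 2 single shocks gives 1.91 to 6.53 times control (median 3.18), and the observed double-shock mean was 0.118 to 0.461 times that product. The double-shock mean lay below the product at all 9 loci, which follows from the rule.

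The threshold cuts through a tail that thins out gradually at that point. Of 12312 loci with a mean of at least 5 CPM in the single-shock libraries, 301 (2.44%) had all 4 of those libraries above the other 4 by any margin, 67 by at least 1.1 times and 21 by at least 1.2 times. Just inside the threshold lay LOC_Os02g46660, where 373.4 CPM in its lowest single-shock library was 1.33 times 280.8 CPM in its highest other library. Just outside lay LOC_Os01g17390 (chromosome 1), where 366.3 CPM was 1.26 times 291.6 CPM. A stricter margin of 1.5 times kept 4 loci and a margin of 2 times kept only LOC_Os02g45930. The mirror rule, single-shock libraries below all others, found 21 loci at the 1.3 margin and 299 at any margin. Whether these 2 numbers of loci differ beyond the spread between libraries was not tested.

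**Figure D2:**
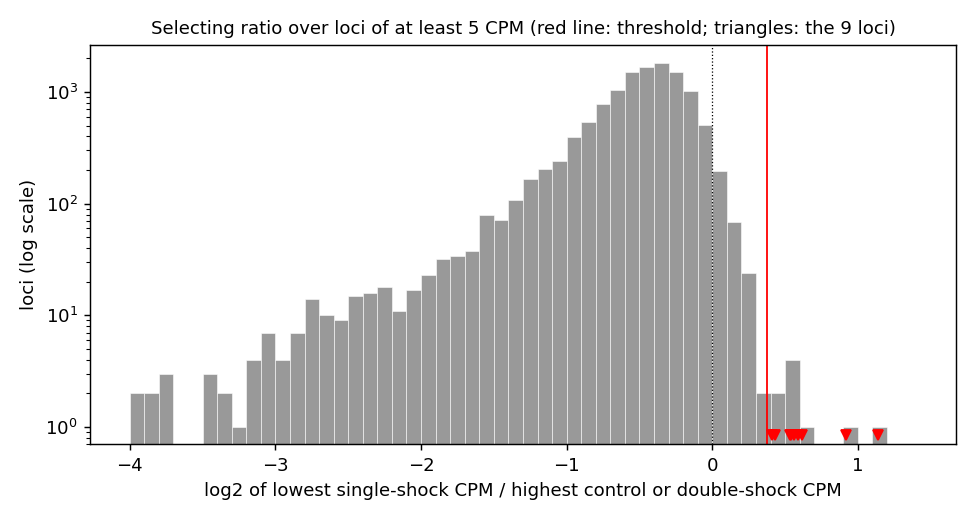
The horizontal axis is the log2 of the lowest single-shock CPM divided by the highest control or double-shock CPM, in bins of 0.1, for loci with a mean of at least 5 CPM in the single-shock libraries. The vertical axis counts loci on a log scale, and 23 loci below -4 are not drawn. The red line is the threshold of 1.3 times and the triangles are the 9 loci, which sit in the thin tail beyond the bulk; empty bins separate the 2 with the widest gaps, LOC_Os02g45930 and LOC_Os04g49370, from the rest.

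With TMM-scaled CPM the same rule found 10 loci, 8 of them among the 9. LOC_Os02g46660 was the one lost, its gap narrowing from 1.33 to 1.21 times, while the other 8 kept gaps of 1.35 to 2.22 times. Leaving control replicate 1 out of the rule raised the number found from 9 to 32, and leaving out vegetative replicate 1 or double-shock replicate 1 raised it to 16 and 15. Leaving out any of the other 5 libraries gave 10 or 11. Control replicate 1 is thus the library that most often kept a locus out of the group.

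The rule was also applied to part of the libraries and read in the rest. The rest had no part in choosing the sets found, but did in choosing the 9 loci. Applied to the 4 replicate 1 libraries alone, it found 44 loci. In the replicate 2 libraries, both single-shock libraries lay above both others at 21 of these 44 loci (47.7%), and below both at 3 (6.82%). Over all 12431 loci with a mean of at least 5 CPM in the 8 libraries, the same separation was seen at 15.0% upward and 14.6% downward. The median log2 difference between the sides was 0.28 for the 44 loci and -0.01 for all loci.

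Applied to the replicate 2 libraries alone, the rule found 181 loci. At 59 of them (32.6%) the replicate 1 libraries separated upward and at 14 (7.73%) downward, where all loci gave 12.3% and 19.2%. The median log2 difference was 0.14, against -0.05 over all loci. With TMM-scaled CPM these shares were 60.7% of 61 loci and 32.3% of 164, beside 16.8% and 18.8% of all loci. In plain CPM, most of the loci picked on 4 libraries thus did not keep the full separation in the other 4. The 9 loci, which had to meet the rule in all 8 libraries, are among both sets by construction. They count among the 21 and the 59 separated loci for that reason, so these shares give no separate support for them.

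**Figure D3:**
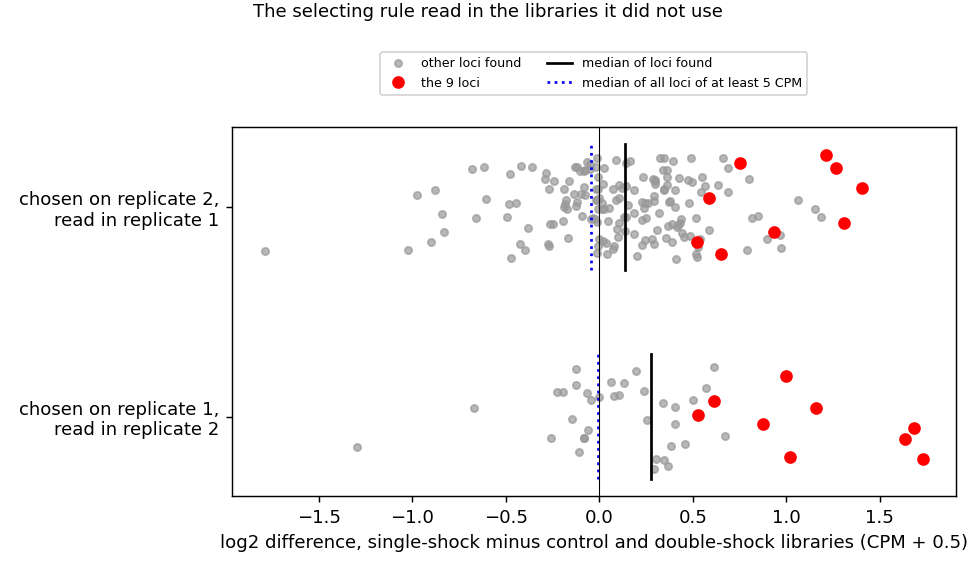
Each point is a locus that met the rule in the libraries of 1 replicate number; the horizontal axis is its log2 difference (CPM + 0.5) between single-shock and other libraries of the other number. Black bars are medians of the 44 and 181 loci found (0.28 and 0.14) and dotted bars medians of all loci of at least 5 CPM (-0.01 and -0.05). Red points are the 9 loci, which were chosen on all libraries and lie to the right of 0 for that reason; many of the grey points lie at or left of 0.

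Leaving out 1 library at a time gave a reading that differed between libraries. The rule on the other 7 libraries found 115 loci summed over the 8 choices. All 9 members are in each of the 8 sets, so the sum counts them 8 times and the 8 shares are not independent. The members had been chosen with the unused library too, so the shares give no separate support for them. At 80 of the 115 (69.6%) the unused library lay on its own side of the midpoint between the sides. For control replicate 1 this held at 10 of 32 loci, a share of 31.2% beside 33.0% over all loci. For control replicate 2, reproductive replicate 1 and reproductive replicate 2 it held at all 10, 11 and 10 loci found, of which 9 each are the members. For vegetative replicate 1 the share was 75.0% beside 43.5% of all loci, for vegetative replicate 2 it was 81.8% beside 70.2%, for double-shock replicate 1 it was 60.0% beside 60.2%, and for double-shock replicate 2 it was 90.0% beside 45.4%. Control replicate 1 and double-shock replicate 1 thus gave shares at the level of all loci. With TMM factors they gave 45.2% beside 51.5% and 71.4% beside 53.2%.

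The reproductive against the vegetative shock asks whether the stage of a single shock mattered at these loci. None of the 9 passed the test. Of the 9 loci, 0 were called by edgeR's quasi-likelihood test at an adjusted p below 0.05, where 0.0548% of the 18251 loci tested were called. At an unadjusted p below 0.05 there was 1 of 9, beside 7.62% of all loci, and DESeq2 called 0 of 9, beside 0.389%. The log2 fold changes ran from -0.28 to 0.56, with a median of 0.10 against -0.01 over all loci, and the median absolute value was 0.23 against 0.18. An adjusted p above the threshold does not show equal levels: the 95% intervals of the 9 loci, at their widest, ran from -0.88 to 1.15.

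On the TMM scale used for this test, 7 of the 9 loci had a positive log2 fold change, as had 48.7% of all loci tested. LOC_Os01g23990 had the largest, with 12.8 TMM-scaled CPM after the reproductive and 8.70 after the vegetative shock (log2 fold change 0.56, SE 0.26, 95% interval -0.04 to 1.15, edgeR adjusted p = 0.679). LOC_Os05g32970 was next (0.43, SE 0.18, interval 0.01 to 0.85, edgeR adjusted p = 0.644), and it is the locus with the unadjusted p below 0.05. At these loci both reproductive libraries lay above both vegetative ones, which was so at 19.9% of all loci of at least 5 CPM; the opposite held at 0 of the 9 and at 20.4% of all. For LOC_Os05g32970 the log2 fold change was 0.12 without reproductive replicate 2 and 0.68 without reproductive replicate 1.

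The 2 loci that pointed to the early shock were LOC_Os04g49370 (log2 fold change -0.28, SE 0.27, edgeR adjusted p = 0.853) and LOC_Os06g50230 (-0.26, SE 0.24, edgeR adjusted p = 0.839). Vegetative replicate 1 was the highest library at both, and without it the values were -0.04 and -0.05. The remaining 5 loci lay between 0.01 and 0.23. The balance of directions moved with single libraries: 7 of 9 positive became 3 without vegetative replicate 2 and 4 without reproductive replicate 2. At LOC_Os02g45930 and LOC_Os02g46660 the sign depends on the scaling, with a reproductive mean of 0.947 and 0.943 times the vegetative in plain CPM and log2 fold changes of 0.02 and 0.01 with TMM factors.

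The double shock against control asks whether plants that met salt at both stages differed at these loci from plants that never did. Again 0 of the 9 loci were called by edgeR, where 0.164% of all loci were, and DESeq2 called 0 of 9, beside 1.27% of all loci. At an unadjusted p below 0.05 there was 1 of 9, beside 11.2%. Of the 9, 7 had a lower level in double-shock plants on the TMM scale, and 48.9% of all loci were lower. The median log2 fold change was -0.12 against 0.01 over all loci, and the median absolute value was smaller, 0.12 against 0.20. In both comparisons the spread inside a side enters the choice of the 9. The loci tested also include some below the 5 CPM floor, so the absolute values are not a like comparison. With TMM factors both double-shock libraries lay below both control libraries at 5 of the 9, beside 22.2% of all loci of at least 5 CPM. Both lay above at 0 of the 9, beside 20.0%. In plain CPM the numbers were 4 and 0 of the 9, beside 22.3% and 16.6% of all loci.

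The largest difference was at LOC_Os06g50230, with 118.5 TMM-scaled CPM after the double shock and 200.3 in control (log2 fold change -0.76, SE 0.24, 95% interval -1.31 to -0.21, edgeR adjusted p = 0.285). It is the locus with the unadjusted p below 0.05, and both double-shock libraries lay below both control libraries. In DESeq2 its log2 fold change was -0.75 and its DESeq2 adjusted p = 0.0512, just above the threshold of 0.05. Without double-shock replicate 2 its log2 fold change was -0.47, and without double-shock replicate 1 it was -1.12. LOC_Os04g49370 was next (-0.62, SE 0.30, interval -1.29 to 0.06, edgeR adjusted p = 0.493). Its value moved more with single libraries, to -0.19 without double-shock replicate 2 and -1.19 without double-shock replicate 1. Then came LOC_Os02g45930 (-0.34, SE 0.18, interval -0.75 to 0.07, edgeR adjusted p = 0.537). These are 3 of the 4 loci with the largest gap in means between the sides. The double-shock level is part of that gap, so a lower level there widens it by arithmetic.

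The only positive values were at LOC_Os01g23990 (log2 fold change 0.11, SE 0.29, interval -0.56 to 0.78, edgeR adjusted p = 0.931) and LOC_Os02g45000 (0.00, SE 0.17, interval -0.39 to 0.40, edgeR adjusted p = 0.995). The double-shock mean of LOC_Os02g45000 was 0.978 times control in plain CPM, so the direction at that locus depends on the scaling. The first turned to -0.25 without control replicate 1. Without that library all 9 loci were lower in double-shock plants, with a median of -0.22. Without control replicate 2, 6 of 9 were.

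**Figure D4:**
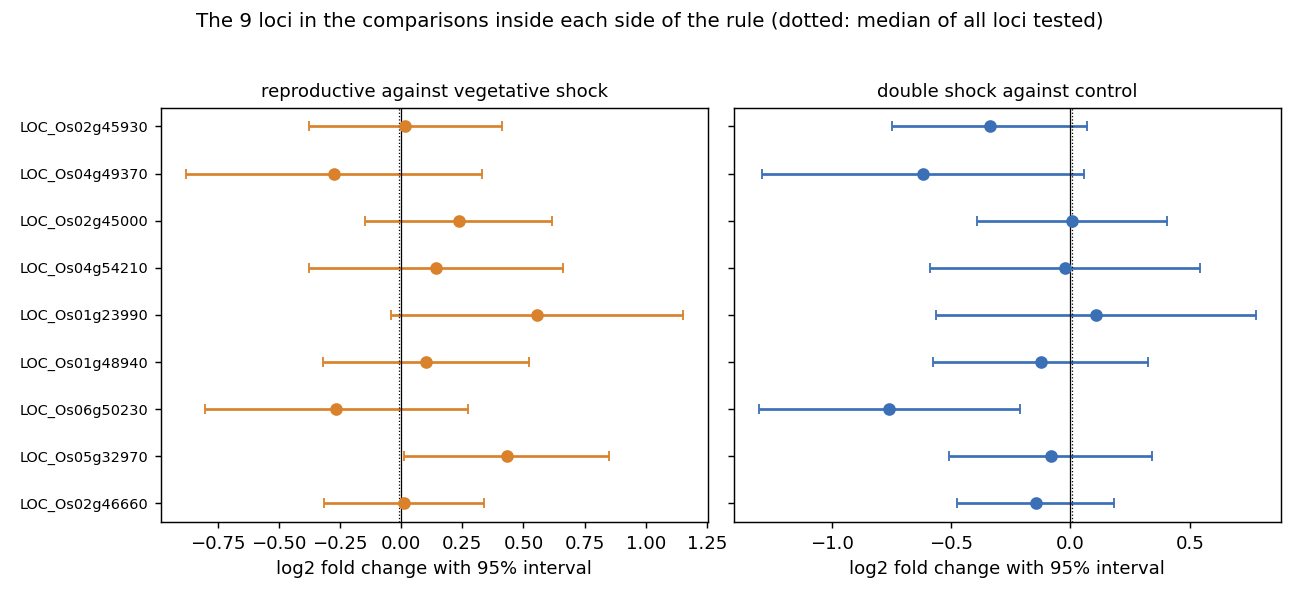
Points are edgeR log2 fold changes of the 9 loci and bars their 95% intervals, for the reproductive against the vegetative shock (left) and the double shock against control (right). The dotted line is the median over all 18251 loci. Intervals of 8 of the 9 loci cover 0 in each panel, the exceptions being LOC_Os05g32970 on the left and LOC_Os06g50230 on the right.

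The order of libraries inside each side was not fixed by the rule either, and was looked at after the values were seen. On the lower side, double-shock replicate 2 was the lowest of the 4 libraries at 6 of the 9 loci in TMM-scaled CPM, beside 23.5% of all loci of at least 5 CPM, and the highest at 0, beside 27.3%. At LOC_Os02g45930, LOC_Os04g49370, LOC_Os06g50230 and LOC_Os02g46660 the order was double-shock replicate 2, double-shock replicate 1, then both control libraries. In plain CPM double-shock replicate 2 was likewise the lowest at 6, beside 19.1% of all loci, and the highest at 0, beside 29.1%. On the higher side the order depended on the scaling. Vegetative replicate 2 was the lowest at 6 of the 9 with TMM factors, beside 30.1% of all loci. In plain CPM it was the lowest at 2 of the 9, beside 14.0%, and reproductive replicate 1 at 5, beside 18.3%. The 4 loci named above had vegetative replicate 1 as their highest library, and with TMM factors they were the only ones of the 9, beside 24.4% of all loci.

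By their identifiers, 3 of the 9 loci lie on chromosome 2, 2 each on chromosomes 1 and 4, and 1 each on chromosomes 5 and 6. Of all loci of at least 5 CPM, chromosome 2 holds 12.3%, chromosome 1 14.3%, chromosome 4 8.62%, chromosome 5 8.20% and chromosome 6 7.84%. The 3 on chromosome 2 fall within 158 of the 5377 loci counted there. Whether they lie closer together than other sets of loci was not tested. No 2 of the 9 are neighbours, the closest being 69 loci apart in identifier order.

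The 5 loci on each side of every member were also read. Of these 90 flanking loci, 29 had a mean of at least 5 CPM, and 14 of the 29 (48.3%) had a higher mean in the single-shock libraries, beside 42.9% of all loci. All single-shock libraries lay above all others at 1 of the 29, and 0 were members. That separation was seen at 2.44% of the 12312 loci with a mean of at least 5 CPM in the single-shock libraries. The ratio of the side means ran from 0.632 to 1.37 at the 29 flanking loci, while the 9 loci themselves had 1.47 to 2.89.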

How the data were processed

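The authors deposited 1 table of unnormalised counts for each library, with 1 row per locus. The submitters' processing notes name STAR 2.7, HTSeq 0.11.1, Trimmomatic, FastQC 0.11.7 and edgeR 3.8. The genome build, annotation and strand setting are not given in the sources used. Overlapping loci, and loci with a close copy elsewhere, therefore have uncertain counts. The 5 closing HTSeq lines, 14.97% to 19.2% of reads, name no locus and were left out.

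From the counts, CPM was computed on the counted reads and the rule applied. All 8 libraries entered 1 edgeR 4.0.16 quasi-likelihood fit (R 4.3.3) with a term for group, TMM factors and the filterByExpr filter, which kept 18251 loci and all 9 members. Tests were two-sided with Benjamini-Hochberg adjustment over all loci tested. SE was taken as the log2 fold change over the square root of the F statistic. The fit was tested on simulated data. Libraries of a group differed by more than sampling noise (chi-square per degree of freedom 12.4 to 14.4), so no pair differed by counting error alone. That value cannot tell 2 libraries from 1 library sequenced or processed again. Whether they share plants or RNA is not given.

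The members and the rule were chosen with earlier results of these data known. Named loci were those with the widest gap, the highest level, the largest rises and falls in each comparison, and the values next to the threshold. LOC_Os01g48940 and LOC_Os04g54210 were added after their values were seen, to account for all 9. Alternatives were other scaling, filters, tests (DESeq2 1.42.0 among them), thresholds, a replicate block, a term for multiply aligned reads, and leaving out each library. Gene lists by product words and tissue markers were not used, since no identifier was paired with a name.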

Additional observations from a re-analysis of the deposited data

How the results depend on the processing

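The number of loci meeting the rule moved with its threshold, from 9 to 21 at a margin of 1.2 times, 4 at 1.5 times and 1 at 2 times, and to between 10 and 32 when 1 library was left out. RLE factors gave 10, and a floor of 1 or 10 CPM gave 13 or 8. For the reproductive against the vegetative shock, calls over all loci went from 10 to 446 without a low-count filter, 96 with the likelihood ratio test, 71 with DESeq2, 5 in a fit of these groups alone, 1 with a term for multiply aligned reads, and 0 to 13 without 1 library. For the double shock against control they went from 30 to 1119, 360 and 232 in the first 3 of these, and to 4 to 49 without 1 library. None of the 9 loci was called in any alternative run of either comparison, with 1 exception. Without the low-count filter, LOC_Os06g50230 was called in the double shock against control (log2 fold change -0.76, edgeR adjusted p = 0.00045). It was 1 of 9 members called there, beside 1119 of the 30913 loci tested. The cause was not tested.

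The median log2 fold change of the 9 loci stayed between -0.03 and 0.24 for the first comparison and between -0.22 and -0.10 for the second when 1 library was left out. LOC_Os02g45000, near 0 in the double shock against control, turned to -0.0074 with the term for multiply aligned reads and lay between -0.19 and 0.18 without 1 library. LOC_Os01g23990 lay between -0.25 and 0.55 there. The replicate numbers were not taken as pairing libraries, since deviations of same-numbered libraries correlated at -0.16 to 0.26 between groups. With the number as a block, calls over all loci were 54 for the double shock against control and 11 for the other comparison, with 0 members among them.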
